A study of Mus musculus with 8 samples.

Results

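Small proline-rich genes and simple epithelial keratins were examined in mouse Hepa-1c1c7 (Hepa-1) cells, an established hepatoma line, after acute exposure to hexavalent chromium. The set holds 10 of the 23403 genes in the count table: the small proline-rich genes Sprr2h, Sprr1a, Sprr2a1, Sprr2d, Sprr2f and Sprr2k, and the keratin genes Krt8, Krt18, Krt19 and Krt7. It was chosen by the RNA-seq fold change of Sprr2h, which was among the largest decreases in these same libraries, so the values of the 10 genes in this contrast are a description, and calls among them are counted without being read as evidence. By fitted log2 fold change, Sprr2h stood 30th from the most lowered of 13619 tested genes and Sprr1a stood 155th from the most raised.

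The study exposed cells to 25 µM CrK2O4, a Cr(VI) salt, for 90 minutes, or grew them in 0.5 µM for 20 passages. RNA-seq was available for 2 libraries of cells given 25 µM (Cr25) and 2 control libraries without chromium, whose labels do not say which of the regimens they were grown alongside. FAIRE-seq, which sequences DNA that is free of crosslinked nucleosomes, was represented by lists of peaks opened in treated against control cells, 1 library against 1 for each regimen. All libraries came from 1 cell line, and the labels do not say whether replicates were separate cultures, so p-values measure the spread between these libraries, which may be technical.

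SPRR proteins are short proline-, cysteine- and glutamine-rich chains that transglutaminases cross-link into the cornified envelope, the protein shell beneath the membrane of a dying keratinocyte. Their genes lie side by side in the epidermal differentiation complex, and some members are also induced in injured liver, bile duct, gut and lung epithelium. Keratins build intermediate filaments as obligate pairs of a type I and a type II chain. Krt8 (type II) and Krt18 (type I) form the filament of simple epithelia and are the keratin pair of hepatocytes, whereas Krt7 (type II) and Krt19 (type I) are known from bile duct and other ductal cells.

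The labelled cell type was checked against marker genes. CPM are reads of a gene scaled to a common library total after TMM normalization. Albumin (Alb) stood at 904 to 947 CPM in control and 3548 to 3665 CPM in Cr25 libraries, while 6 of 15 hepatocyte genes stayed under 1 CPM in every library, among them Hnf4a, Apoa1 and Ambp. The summed level of the 15 hepatocyte genes was 2241 to 2305 CPM in control and 5362 to 5920 CPM in Cr25 libraries, and that of 6 fibroblast genes was 655 to 665 CPM and 1206 to 1373 CPM. The 7 bile duct genes summed to 769 to 786 CPM in control and 454 to 519 CPM in Cr25 libraries, and the 8 keratinocyte genes to 16.3 to 17.5 CPM and 10.6 to 16.4 CPM. All 5 leukocyte genes stayed under 1 CPM. The hepatocyte, fibroblast and bile duct sums separate the same libraries as the exposure does, while the groups overlapped in the keratinocyte sum. Whether the groups differ in more than the labelled exposure therefore cannot be told apart, and this applies to every fold change given here. In RNA from whole cultures, fewer cells of a kind and less RNA per cell cannot be told apart.

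The library totals ranged from 32319676 to 37696116 counts. The control pair was tighter (r = 0.9988 over tested genes on a log2 scale) than the Cr25 pair (r = 0.9771), with TMM factors of 1.03 and 0.897 in the Cr25 libraries. Because of that spread, each Cr25 library is given separately for the 10 genes.

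The Sprr genes are close copies of one another, which bears on how reads of 50 cycles could be assigned. Within the Sprr cluster (GRCm38, chr3:92215835-92500493, 284.7 kb) the annotation places Sprr2a1, the Sprr2 genes and then Sprr1b, Sprr3, Sprr1a and Sprr4. Sprr2h (Entrez 20762, chr3:92385685-92387324, plus strand, 2 exons) encodes 108 residues. Its coding sequence repeats 1 stretch of 15 bases 6 times, 27 bases apart from start to start, which makes a run of repeats of 9 codons. The beginning of that reading frame is shown with the 15-base stretch in capitals, beside Sprr2b and Sprr2e, the paralogs nearest to it by 2 measures of identity, and Sprr1a, the relative that moved the other way. Each run gives the first 300 bases or the whole frame if shorter, 5′ to 3′ on the coding strand, from RefSeq on GRCm38.p6.
Sprr2h: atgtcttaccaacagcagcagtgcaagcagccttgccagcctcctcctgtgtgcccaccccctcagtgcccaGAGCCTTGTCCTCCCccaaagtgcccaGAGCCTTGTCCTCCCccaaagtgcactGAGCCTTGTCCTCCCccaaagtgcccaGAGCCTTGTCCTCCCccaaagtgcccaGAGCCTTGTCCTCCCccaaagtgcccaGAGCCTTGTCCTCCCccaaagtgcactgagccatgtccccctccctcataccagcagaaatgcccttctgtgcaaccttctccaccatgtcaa
Sprr2b: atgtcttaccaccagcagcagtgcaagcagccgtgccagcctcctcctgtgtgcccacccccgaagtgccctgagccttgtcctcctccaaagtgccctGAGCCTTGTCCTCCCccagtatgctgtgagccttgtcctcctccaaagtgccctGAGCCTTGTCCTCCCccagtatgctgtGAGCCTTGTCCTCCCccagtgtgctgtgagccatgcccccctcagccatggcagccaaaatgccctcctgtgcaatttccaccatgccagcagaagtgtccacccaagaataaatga
Sprr2e: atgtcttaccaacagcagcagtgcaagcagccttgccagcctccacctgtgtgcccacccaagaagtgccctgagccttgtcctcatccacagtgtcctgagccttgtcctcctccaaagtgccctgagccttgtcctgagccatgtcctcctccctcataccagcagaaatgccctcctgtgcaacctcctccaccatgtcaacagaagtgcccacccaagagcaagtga
Sprr1a: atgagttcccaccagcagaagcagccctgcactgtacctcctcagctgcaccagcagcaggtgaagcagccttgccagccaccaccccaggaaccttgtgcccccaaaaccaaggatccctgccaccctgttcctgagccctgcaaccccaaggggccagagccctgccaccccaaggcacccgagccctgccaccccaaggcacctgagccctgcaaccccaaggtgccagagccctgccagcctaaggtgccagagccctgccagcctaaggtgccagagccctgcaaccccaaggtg

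Sprr2b holds 3 exact copies of the capitalised stretch, and Sprr2e and Sprr1a hold 0. Over all alignment columns, gaps included, the coding sequence of Sprr2h was closest to that of Sprr2b (80.4% identity). Over aligned bases alone it was closest to that of Sprr2e (93.5%), whose frame is 231 bases long against 327. Sprr1a shared 75.2% of aligned bases with Sprr2h. The longest identical run that the Sprr2h mRNA had in common with another Sprr mRNA was 44 bases, with Sprr2e and with Sprr2i, and with Sprr1a it was 17 bases.

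**Figure D1:**
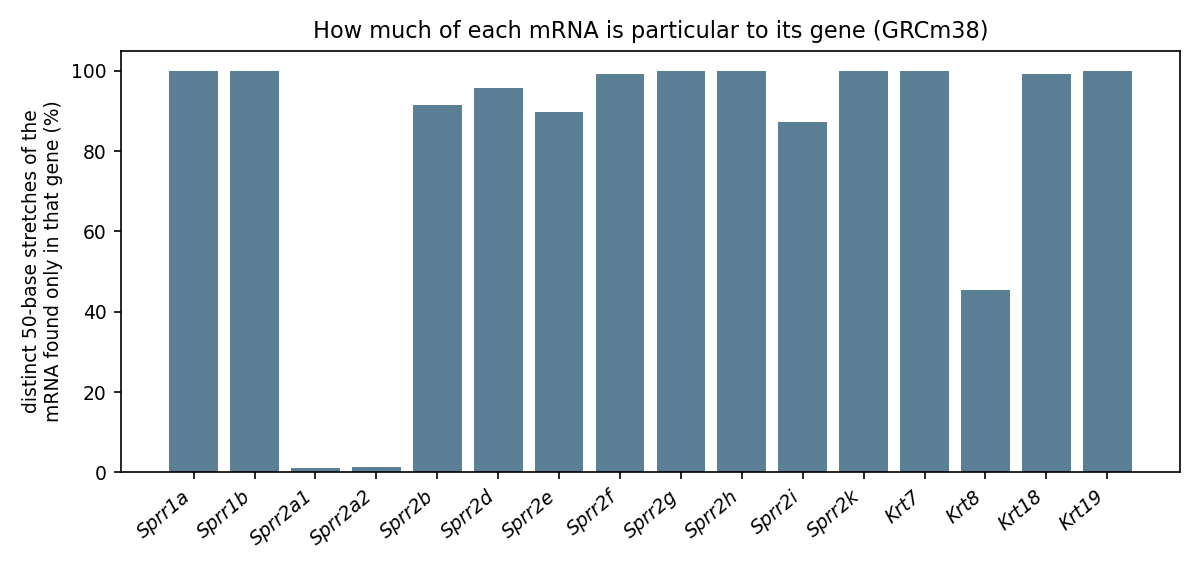
Share of the distinct 50-base stretches of each mRNA (vertical axis, percent) that occur in the GRCm38 genome and its RefSeq transcripts only within that gene, 1 bar per gene. Sprr2h, Sprr1a, Sprr2k, Krt7 and Krt19 stand at 100%, Krt8 at 45.5%, and Sprr2a1 and Sprr2a2 near the floor of the axis.

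An exact read of 50 bases from the mature Sprr2h mRNA therefore points to that gene alone: all 656 distinct 50-base stretches occur only within Sprr2h, some of them more than once in its repeats, and at 36 bases 98.6% do. The same held for Sprr1a, Sprr2k, Krt7 and Krt19 at 50 bases (100% each), and nearly so for Sprr2f (99.3%), Krt18 (99.3%) and Sprr2d (95.7%). Sprr2a1 (Entrez 20755, chr3:92215835-92222491, plus strand) was the opposite case. Only 1.03% of its stretches were unique, 97.1% were shared with Sprr2a2, and the table gives the identical counts to both genes in all 4 libraries. The Sprr2a1 value therefore cannot be split between them. A further copy, Sprr2a3, had no row. Its coding sequence was 98.8% identical to that of Sprr2a1, with which it shared 49.1% of its stretches. Whether its reads are included in the Sprr2a1 value was not tested. Krt8 shared 52.7% of its stretches with the pseudogene Krt8-ps. How the authors' counting treated reads with several places is not given in the sources used here, so the values of Sprr2a1 and Krt8 are uncertain to that extent. No annotated gene overlaps any of the 10 genes.

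Sprr2h was lower and Sprr1a higher in Cr25 cells. Sprr2h was read 14 and 22 times in the Cr25 libraries and 356 and 447 times in the controls. The mean level was 0.587 ± 0.244 CPM in Cr25 cells and 10.8 ± 0.843 CPM in control cells (SD, n = 2 libraries each). The fitted log2 fold change was −4.22 (SE 0.34), an 18.6-fold lower level, and the lowest control library stood far above the highest Cr25 library.

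Sprr1a (Entrez 20753, chr3:92483954-92485881, minus strand), an envelope precursor known as a regeneration- and stress-associated transcript, was read 21433 and 29370 times in Cr25 and 4331 and 5301 times in control libraries. Its mean level was 823 ± 269 CPM against 130 ± 7.78 CPM (SD, n = 2 each), a log2 fold change of 2.66 (SE 0.28) or 6.33-fold. Here too the groups did not overlap, and the second Cr25 library was the higher of its pair.

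Sprr2a1, with its indistinguishable copy Sprr2a2, is the Sprr2 transcript best known from liver and gut. It was read 1549 and 2040 times in Cr25 and 2991 and 3460 times in control libraries, 58.1 ± 17.4 CPM against 87.2 ± 1.74 CPM (SD, n = 2 each). Both Cr25 libraries lay below both controls, with a log2 fold change of −0.59 (SE 0.23).

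The 3 remaining Sprr2 genes were too low to test. Sprr2d had 0 and 0 counts in Cr25 and 0 and 5 in control libraries, and Sprr2f had 0 and 0 against 1 and 2. Sprr2k had 1 and 5 counts in Cr25 and 5 and 3 in control libraries. A count of 0 allows up to 3 counts, which is 0.0767 to 0.1035 CPM depending on the library and covers counting error only. At that depth no difference in Sprr2d, Sprr2f or Sprr2k was detectable in either direction, and no fold is given for them.

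**Figure D2:**
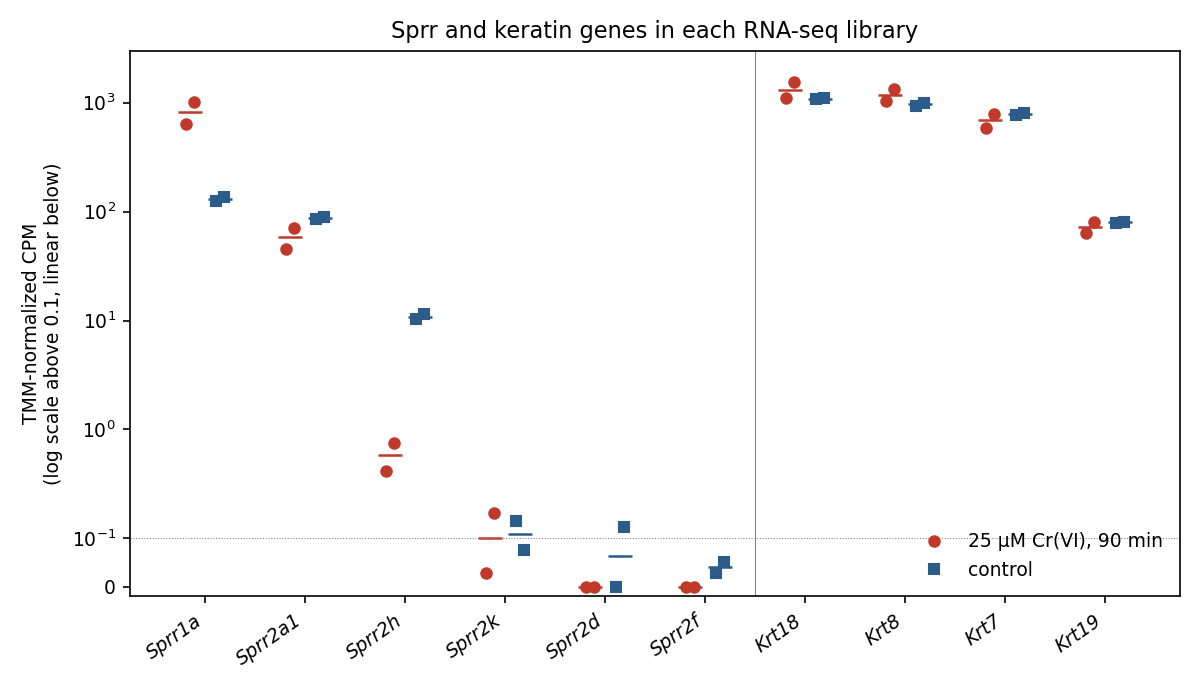
Level of each of the 10 genes (TMM-normalized CPM, logarithmic above 0.1 and linear below) in the 2 Cr25 libraries (red circles) and 2 control libraries (blue squares), with group means as short bars. Sprr1a lies higher and Sprr2h lower in both Cr25 libraries, Sprr2d, Sprr2f and Sprr2k sit at or near 0, and the keratins lie close together.

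The 4 keratins were abundant, with log2 fold changes from −0.20 to 0.28. Krt18 (Entrez 16668, chr15:102028216-102032026) was read 37370 and 44538 times in Cr25 and 37496 and 42793 times in control libraries, 1321 ± 306 CPM against 1086 ± 11.3 CPM (SD, n = 2 each). Krt8 (Entrez 16691, chr15:101996711-102004342), its filament partner, was read 35067 and 38498 times against 32781 and 39149 times, 1182 ± 207 CPM against 972 ± 41.3 CPM. Both partners had the same log2 fold change of 0.28 (SE 0.23 for Krt18 and 0.20 for Krt8), the first Cr25 library of each lying just above the controls and the second well above them.

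The ductal keratins leaned the other way by a smaller amount, with groups that overlapped. Krt7 (Entrez 110310, chr15:101412403-101427806) was read 19820 and 22903 times in Cr25 and 26955 and 31619 times in control libraries, a log2 fold change of −0.20 (SE 0.20). Krt19 (Entrez 16669, chr11:100140810-100145926), a type I keratin that lacks most of the usual tail, was read 2133 and 2348 times against 2747 and 3134 times, a log2 fold change of −0.14 (SE 0.16). For both genes the first Cr25 library was the lowest of the 4, and the second lay within or just above the control range on the CPM scale.

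Per kilobase of exon, the ratio of Krt8 to Krt18 was 0.728 and 0.670 in Cr25 and 0.678 and 0.710 in control libraries, so the pair kept its proportion within the spread of the libraries. The ratio of Krt7 to Krt8 on the same scale was 0.643 and 0.677 in Cr25 and 0.936 and 0.919 in control libraries. That of Krt19 to Krt18 was 0.056 and 0.052 against 0.072 and 0.072. In the last 2 ratios the groups did not overlap, although the levels of Krt7 and Krt19 themselves did. Levels did not overlap for 66.3% of all tested genes, and no such share was computed for ratios, so nothing is read from this. The Krt8 term carries the pseudogene limit given above.

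Of the 10 genes 7 passed the low-count filter, and of those Sprr1a was called higher and Sprr2h lower by edgeR's quasi-likelihood test with Benjamini-Hochberg adjustment. Over all tested genes 4.63% were called, 1.78% higher and 2.85% lower. Groups did not overlap for Sprr2h, Sprr1a, Sprr2a1, Krt8 and Krt18 among the 7, against 66.3% of all tested genes. Since the contrast chose the set, nothing is read from these shares.

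Within the Sprr family as a whole the balance of transcripts differed between the groups. Summed over all Sprr genes, with Sprr2a2 left out as a repeat of Sprr2a1, the level was 687 and 1102 CPM in Cr25 and 277 and 298 CPM in control libraries. Without Sprr1a it was 53.4 and 88.6 CPM against 152 and 162 CPM. Sprr1a therefore made up most of the Sprr signal of Cr25 cells, while the rest of the family summed to less than in control cells.

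Of the other Sprr genes, 9 had a row and 5 were tested. None of those 5 was called by edgeR, 3 had an unadjusted p under 0.05, and DESeq2 called 2, Sprr1b and Sprr2e. Over all tested genes 30.7% had an unadjusted p under 0.05 and DESeq2 called 13.8%. With 1 library left out edgeR called at least 1 of them lower. Without a Cr25 library it also called far more of all genes. The median log2 fold change of the 5, Sprr2a2 included, was −0.81 and without Sprr2a2 it was −1.72, against −0.0047 over all tested genes.

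Sprr1b, the nearest relative of Sprr1a, was read 140 and 360 times in Cr25 and 1695 and 2098 times in control libraries. Its log2 fold change was −2.63 (SE 0.55, edgeR adjusted p = 0.0711, and 1.53e-08 by DESeq2), opposite in sign to Sprr1a. Every alternative kept that direction, from −3.63 to −2.03. Both genes lie on the minus strand, and all 50-base stretches of either were found only there (100% each).

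Sprr2b, with 60 and 74 against 119 and 163 counts, had a log2 fold change of −0.81 (SE 0.29, edgeR adjusted p = 0.151). Sprr2e and the pseudogene Sprr2g fall outside the rule for named genes and were added after their values were seen. Sprr2e, the paralog with the highest identity to Sprr2h over aligned bases, had 4 and 9 against 57 and 58 counts, a log2 fold change of −2.87 (SE 0.48, edgeR adjusted p = 0.054, and 0.00633 by DESeq2). Sprr2g, which lies between Sprr2f and Sprr2h, had 36 and 50 against 69 and 93 counts and a log2 fold change of −0.65 (SE 0.34, edgeR adjusted p = 0.264).

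**Figure D3:**
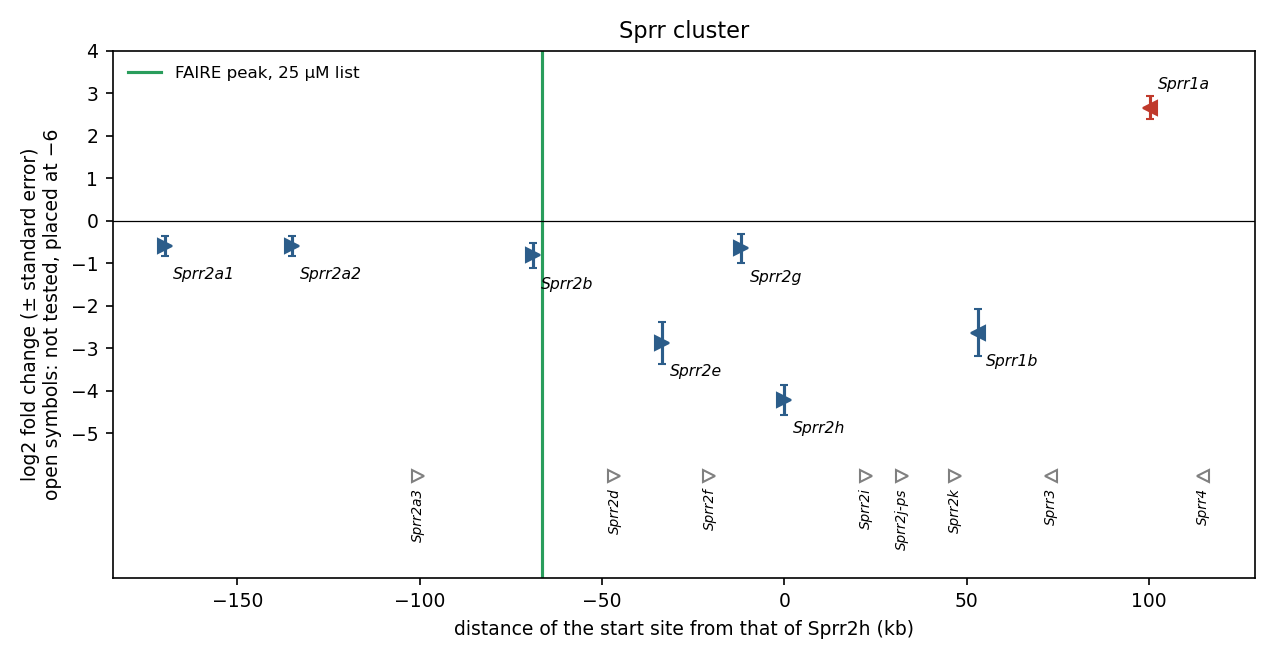
Fitted log2 fold change of Cr25 against control (vertical axis, bars are standard errors) for each Sprr gene by the distance of its start site from that of Sprr2h (horizontal axis, kb), arrowheads giving the strand. Open symbols were not tested or had no row (Sprr2a3). The green line is the one FAIRE peak of the cluster, 66.3 kb from the start of Sprr2h, and Sprr1a at the right is the one tested gene above 0.

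Along the cluster, the tested genes with the lowest fold changes (Sprr2e, Sprr2h and Sprr1b) did not stand next to each other: Sprr2f and Sprr2g lie between Sprr2e and Sprr2h, and Sprr2i, Sprr2j-ps and Sprr2k lie between Sprr2h and Sprr1b. Of those 5, only Sprr2g was high enough to test.

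**Figure D4:**
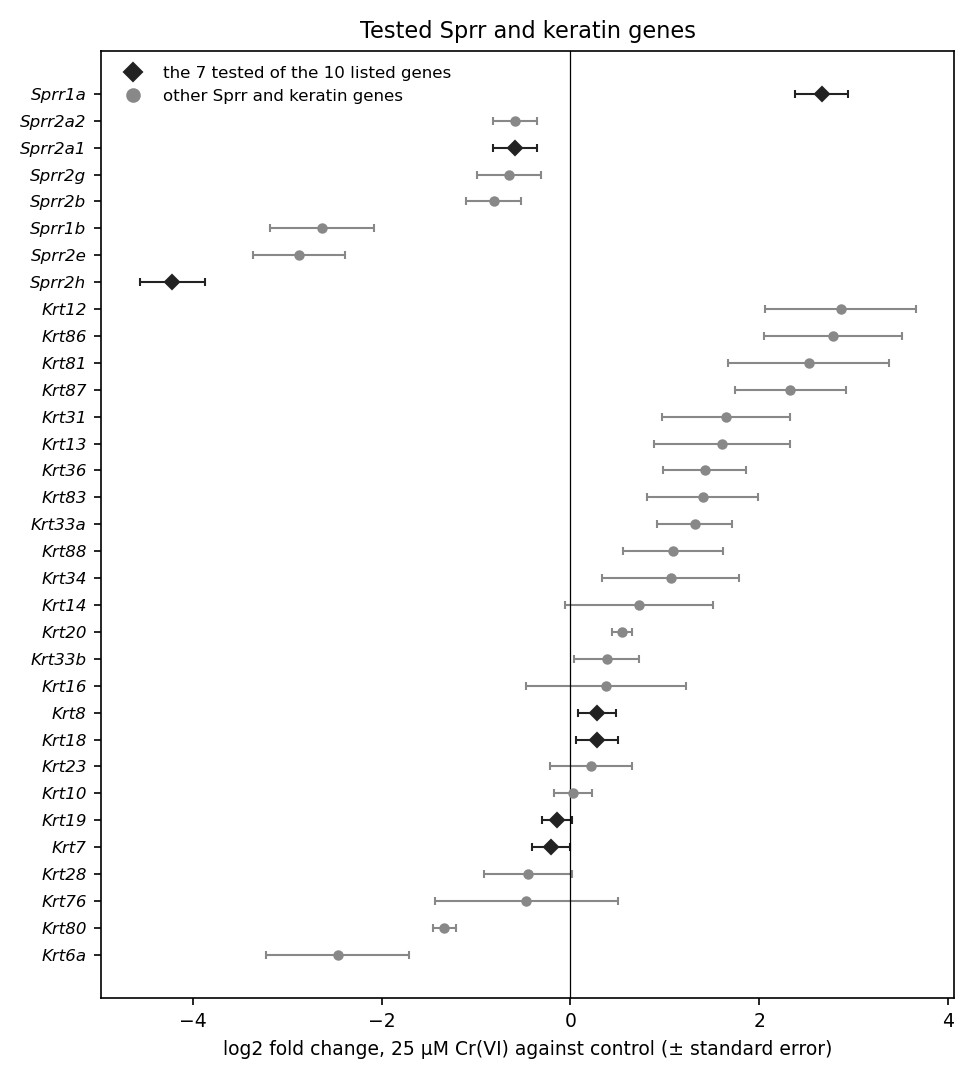
Fitted log2 fold change of Cr25 against control with its standard error (horizontal axis) for the 7 tested genes of the set (black diamonds) and the other tested Sprr and keratin genes (grey circles). Sprr1a stands alone on the right among Sprr genes, and the 4 keratins of the set lie between −0.20 and 0.28.

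Outside the set, 50 further keratin genes had a row and 21 were tested. Of those, 1 was called, lower, a share of 4.76%, near the 4.63% of all tested genes. The number called higher was 0 by edgeR and 3 by DESeq2, which called 13.8% of all the genes it tested in either direction. The edgeR number rose in fits without 1 Cr25 library, in which far more of all genes were called too. The called gene was Krt80, a type II keratin tied to desmosomes, with 505 and 422 counts in Cr25 and 1277 and 1473 in control libraries (log2 fold change −1.33, SE 0.12, edgeR adjusted p = 0.0303). Without the first or the second control library its edgeR adjusted p was 0.0691 or 0.0861, above the threshold. Krt20, a type I keratin of gut epithelium, was read 2661 and 2268 times against 1815 and 2154 times, a log2 fold change of 0.55 (SE 0.10, edgeR adjusted p = 0.0619). Krt10, a keratin of the upper epidermis, had 175 and 130 against 174 and 175 counts and a log2 fold change of 0.03 (SE 0.20, edgeR adjusted p = 0.94), a direction that reversed without normalization.

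The median log2 fold change of these 21 keratins was 1.06, against −0.0047 over all tested genes. Among the genes above it were hair-type keratins with few reads, named here after their values were seen: Krt86 had 24 and 68 against 8 and 8 counts, and Krt87 had 73 and 175 against 26 and 34. In each of them the second Cr25 library held most of the reads, and neither was called (edgeR adjusted p = 0.0986 and 0.0929). The 4 keratins of the set held 96.0% to 96.3% of all keratin CPM in every library.

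Of 34 symbols listed for the cornified envelope, the structure that SPRR proteins enter, 32 had a row. Of those, 13 were tested, of which 3 were called lower and 1 higher. Over all tested genes 2.85% were called lower and 1.78% higher. Both counts rose in fits without 1 Cr25 library, in which far more of all genes were called too. Crct1, a cysteine-rich gene of the same complex, had 1 and 5 counts in Cr25 and 127 and 138 in control libraries (log2 fold change −5.16, SE 0.59, edgeR adjusted p = 0.0327). Scel, which encodes the envelope precursor sciellin, had 49 and 50 against 644 and 724 counts (−3.54, SE 0.20, edgeR adjusted p = 0.0282). S100a9, a calcium-binding protein of myeloid cells and stressed epithelium, had 4 and 1 against 39 and 45 counts (−3.79, SE 0.52, edgeR adjusted p = 0.0408). The gene called higher was S100a16, another calcium-binding S100 protein, with 409 and 382 against 163 and 188 counts (1.41, SE 0.17, edgeR adjusted p = 0.035). Without the first or the second control library the edgeR adjusted p of S100a9 was 0.0628 or 0.0715 and that of S100a16 was 0.25 or 0.226, so neither was called. The median of the 13 was −0.10, and the abundant S100a6, S100a10 and S100a11 were not called.

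In the epidermal differentiation complex, the chromosome 3 region around the Sprr genes, 52 genes other than Sprr genes had a row. Of these, 18 were tested, with 4 called lower and 1 higher, against 2.85% and 1.78% of all tested genes. Their median log2 fold change was −0.64. The number called lower rose in fits without 1 Cr25 library, where far more of all genes were called too. It fell without either control library, as did the number over all genes. The list shares Crct1, S100a9 and S100a16 with the envelope list. The other 2 called genes were Pglyrp3, an antibacterial peptidoglycan-binding protein, with 2 and 3 against 57 and 82 counts (−4.49, SE 0.43, edgeR adjusted p = 0.0312), and the late envelope gene Lce1g, with 7 and 6 against 36 and 40 counts (−2.29, SE 0.32, edgeR adjusted p = 0.0428). Leaving out either control library ended the call of Lce1g (edgeR adjusted p = 0.345 and 0.354), and so did DESeq2 (adjusted p = 0.0589).

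Of 22 genes for filament linkers, desmosomes and other intermediate filaments, 18 were tested and none was called by edgeR, 6 had an unadjusted p under 0.05, and DESeq2 called 4, where the shares over all tested genes were 30.7% and 13.8%. Some were called in fits without 1 Cr25 library, in which far more of all genes were called too. The 3 most abundant were vimentin (Vim), the filament of mesenchymal cells, at −0.15 (SE 0.19, edgeR adjusted p = 0.613), the nuclear lamin Lmna at −0.15 (SE 0.14, edgeR adjusted p = 0.505), and Jup, which encodes the junction protein plakoglobin, at −0.0027 (SE 0.15, edgeR adjusted p = 0.992) with a sign that changed under upper-quartile normalization. The control levels of Vim, 1277 and 1308 CPM, were near those of Krt18.

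Of 22 regulators with known roles in Sprr or keratin transcription, 20 were tested and 1 was called, lower. That share of 5% is near the 4.63% of all tested genes. In fits without 1 Cr25 library more were called, as was the case over all genes. The called gene was Klf4, a zinc-finger factor of barrier epithelium, with 4338 and 3655 counts in Cr25 and 7994 and 8775 in control libraries (−0.84, SE 0.10, edgeR adjusted p = 0.037). Without the first or the second control library it kept its direction but not its call (edgeR adjusted p = 0.34 and 0.302). Nfe2l2, which drives the antioxidant response, stood at 0.60 (SE 0.13, edgeR adjusted p = 0.0763, and 0.0246 by DESeq2), Jund at 0.05 (SE 0.13, edgeR adjusted p = 0.814, a sign that changed without normalization) and Stat3 at −0.05 (SE 0.13, edgeR adjusted p = 0.839).

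The AP-1 subunits named next were chosen after their values were seen. Fosl1 was read 2072 and 10222 times in Cr25 and 2948 and 3396 times in control libraries, so the Cr25 libraries lay on either side of the controls (1.27, SE 0.82, edgeR adjusted p = 0.35). Without the second Cr25 library the Fosl1 value was −0.49. Junb stood at 0.80 (SE 0.32, edgeR adjusted p = 0.183) and Jun at 0.74 (SE 0.36, edgeR adjusted p = 0.24), both highest in the second Cr25 library.

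AP-1 binds the letters TGANTCA, and these were searched on both strands in RefSeq promoters from 250 bases before to 50 bases after each start on GRCm38. Of all 32851 promoters 7.81% held them. The promoter table gave an entry for 9 of the 10 genes, Krt19 being the exception, and 5 of those 9 held the letters, always in the form TGAGTCA or its reverse complement TGACTCA (5.20% of all promoters). The 5 were Sprr2h, Sprr2d, Sprr2f, Sprr2k and Sprr1a, which includes the gene with the largest decrease and the gene with the largest increase of the set. The Sprr2 genes among them are paralogs that hold the letters at nearly the same place. The 5 are therefore not independent occurrences to set against the share of all promoters. The 250 bases upstream of these 2 genes are shown with the letters in capitals, beside those of Sprr2a1, where they were not found. Each run reads 5′ to 3′ on the gene's strand: chr3:92385435-92385684 (plus) for Sprr2h, chr3:92485882-92486131 (minus) for Sprr1a and chr3:92215585-92215834 (plus) for Sprr2a1.
Sprr2h: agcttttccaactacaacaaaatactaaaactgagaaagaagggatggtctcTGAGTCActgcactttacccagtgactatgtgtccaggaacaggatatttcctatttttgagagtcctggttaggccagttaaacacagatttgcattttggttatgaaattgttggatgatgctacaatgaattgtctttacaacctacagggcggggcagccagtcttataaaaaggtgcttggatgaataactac
Sprr1a: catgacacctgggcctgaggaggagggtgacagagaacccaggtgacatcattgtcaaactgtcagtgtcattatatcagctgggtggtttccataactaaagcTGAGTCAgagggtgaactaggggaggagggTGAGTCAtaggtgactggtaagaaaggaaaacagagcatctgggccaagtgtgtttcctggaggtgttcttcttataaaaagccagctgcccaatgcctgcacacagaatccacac
Sprr2a1: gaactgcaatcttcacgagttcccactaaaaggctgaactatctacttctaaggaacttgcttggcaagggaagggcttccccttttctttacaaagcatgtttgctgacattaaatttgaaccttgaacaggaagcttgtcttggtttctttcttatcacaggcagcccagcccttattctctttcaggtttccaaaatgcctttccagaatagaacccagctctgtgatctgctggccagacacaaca

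In Sprr2h the letters began 198 bases before the start, and in Sprr1a they occurred 2 times, 146 and 116 bases before it. The position in Sprr2h was shared by its paralogs: in the 6 other Sprr2 promoters that held TGAGTCA it began 193 to 197 bases before the start. The windows of 20 bases on either side are given to show how far the surrounding letters are alike, together with Sprr1b, which held the variant TGAATCA.
Sprr2h, 198 bases before the start: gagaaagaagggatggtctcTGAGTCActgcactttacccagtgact
Sprr2k, 196 bases before the start: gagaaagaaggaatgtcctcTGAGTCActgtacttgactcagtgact
Sprr2k, 182 bases before the start: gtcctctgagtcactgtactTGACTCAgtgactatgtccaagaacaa
Sprr2f, 197 bases before the start: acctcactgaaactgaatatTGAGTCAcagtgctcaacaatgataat
Sprr2d, 193 bases before the start: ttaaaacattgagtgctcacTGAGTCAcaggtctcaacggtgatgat
Sprr2e, 193 bases before the start: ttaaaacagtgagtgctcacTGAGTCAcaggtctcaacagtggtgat
Sprr2b, 195 bases before the start: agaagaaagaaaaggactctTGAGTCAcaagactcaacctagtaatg
Sprr1b, 111 bases before the start: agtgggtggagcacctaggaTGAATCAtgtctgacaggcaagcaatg

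Placed side by side without gaps, the Sprr2k window matched that of Sprr2h at 41 of 47 bases, and the windows of Sprr2b, Sprr2d, Sprr2e and Sprr2f matched it at 19 to 25. Sprr2k, the closest by this measure, was too low to test, while Sprr2h was readily counted in control cells. The 7 Sprr2 promoters with TGAGTCA also all held the octamer ATTTGCAT, 108 to 112 bases before the start, against 1.74% of all promoters. That octamer was searched only after the sequences had been seen, and promoters of paralogs are not independent occurrences. The promoters of Sprr2a1, Krt7, Krt8 and Krt18 held neither set of letters in these windows. A match is a description of the letters and not of a bound site.

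FAIRE peaks were counted around the start sites. In the 25 µM list 0 of the 10 genes had a peak within 1000 bp or 10000 bp of the start, where 0.833% and 4.01% of all 26180 annotated genes did. In the 0.5 µM list it was again 0 of 10 at both distances, against 0.737% and 1.55%.

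The Sprr cluster held 1 peak of the 25 µM list and 0 of the 0.5 µM list. The whole epidermal differentiation complex held 5 peaks of the 25 µM list, or 1.66 per Mb, against 1.26 per Mb on its chromosome. The 1 peak of the Sprr cluster makes 3.51 per Mb, a rate that rests on that peak alone. The peak spanned 103 bp at chr3:92319288-92319390, in the intergenic interval 1202 bp beyond the end of Sprr2b and 7208 bp before the pseudogene Sprr2c-ps. Its score was 56.4, where the score is 10 times the negative log10 of the peak caller's p-value. Its sequence on the plus strand is shown because it is the only opened interval of the cluster: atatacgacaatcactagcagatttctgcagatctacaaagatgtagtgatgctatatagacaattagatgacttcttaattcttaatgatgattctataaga. It held 30.1% G and C and neither TGANTCA nor ATTTGCAT.

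The start of Sprr2d lay 19.8 kb and that of Sprr2f 45.8 kb from this peak, which made them the 2 genes of the set with a peak within 50000 bp, against 16.1% of all genes. Sprr2h lay 66.3 kb and Sprr1a 167 kb away. In the type II keratin cluster, which includes Krt7, Krt8 and Krt18, there were 3 peaks at 25 µM and 0 at 0.5 µM, overlapping Krt82, Gm5414 and Krt74 and none of the 4 keratins. Those 3 make 4.39 per Mb, against 1.64 on the whole chromosome. That rate rests on 3 peaks alone, with scores of 68.8, 50.8 and 53.5, from 1 library against 1. The peak nearest to Krt7 lay 138 kb from its start. In the type I cluster there were 2 peaks at 25 µM, or 1.93 per Mb against 1.68 on the whole chromosome, and 1 at 0.5 µM. The peak nearest to the start of Krt19 lay 87.8 kb away in the 25 µM list and 53 kb away in the 0.5 µM list.

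The 5 tested genes whose values over the 4 libraries were nearest to those of Sprr2h, by Euclidean distance of log2 CPM centred on the controls, were Akr1c18, Mybpc3, Tpbg, Kantr and Col5a2, at distances of 0.32 to 0.53. Akr1c18, a steroid-metabolizing aldo-keto reductase, was read 12 and 14 times in Cr25 and 255 and 311 times in control libraries. Mybpc3, a myosin-binding protein of heart muscle, was read 6 and 15 times against 240 and 243 times. Col5a2, a chain of type V collagen, was read 36 and 32 times against 701 and 802 times. These resemblances are those of low levels in both Cr25 libraries, since the measure weighs little else in a design of 2 against 2. Kantr, a long noncoding RNA, had 2 and 2 against 79 and 86 counts, and the cell surface glycoprotein gene Tpbg 0 and 1 against 31 and 40.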

How the data were processed

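RNA-seq counts per Entrez gene were used as deposited. Per the submitters' notes and methods the authors prepared poly-A libraries with a TruSeq kit, sequenced 50 cycles and aligned the reads to mm10 with TopHat. The counting tool, its use of strand and its handling of reads with several places are not given in the sources used here. FAIRE-seq reads were aligned by the authors with BWA, and the deposited peak score, from MACS at default settings, is 10 times the negative log10 of a p-value. The peak lists hold no read counts, so no interval is given for a peak.

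Symbols were matched for 23305 of 23403 Entrez identifiers. Counts were tested with edgeR 4.0.16 in R 4.3.3 (filterByExpr, TMM, quasi-likelihood test, two-sided, adjusted p threshold 0.05), fitted over 13619 genes of 4 libraries. Library totals of 32319676 to 37696116 put 3 counts at 0.0767 to 0.1035 CPM. The control libraries differed by more than sampling noise (chi-square 2.147 per degree of freedom, and 123 for the Cr25 pair), so all were kept. Alternatives were DESeq2 1.42.0, other normalizations, no filter, a replicate block and each library left out.

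Stretches, promoters and coding alignments came from RefSeq on GRCm38.p6 (Python 3.11.15, Biopython 1.88), the build called mm10. Coding sequences stand in for the planned protein alignments, for which no table was used here. Named genes were the 10 genes, up to 5 called genes of each list with the largest change or, with fewer than 2 called, its 3 most abundant tested genes, and the 5 genes nearest to Sprr2h, with exceptions named in the text. The genes and lists were chosen with earlier results of these data known. Peak coordinates are 1-based.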

Additional observations from a re-analysis of the deposited data

How the results depend on the processing

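Over the 9 alternatives the 7 tested genes of the set gave 63 log2 fold changes, of which 61 kept their direction. The 2 that reversed were Krt19 and Krt7, both without the first Cr25 library; with 1 library omitted Krt19 ranged from −0.34 to 0.036 and Krt7 from −0.44 to 0.0076. Sprr2h stayed between −4.71 and −3.82 and Sprr1a between 2.28 and 2.97. With 1 library omitted, the number of the 10 genes called higher ranged from 1 to 3 and the number called lower from 1 to 4. Those counts were 3 and 2 without the first Cr25 library and 2 and 4 without the second, and in such fits the lone library is assumed to vary like the control pair. With the replicate number as a block, the number called lower was 2. Over the 13619 tested genes, log2 differences between libraries 1 and 2 correlated at 0.118 between the Cr25 and control pairs. That value does not make the numbers more than a shared label. Over all genes 631 were called, 2969 with the block, 2000 by DESeq2, 10995 and 9333 without the first or second Cr25 library, and 294 and 287 without the first or second control library. The median log2 fold change of all genes was −0.11 without normalization beyond library size. Sprr1b was also called under the block, without the filter and with any library left out.

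Other reversals concerned Krt10 (−0.078 without normalization, −0.070 to 0.13 with 1 library omitted), Jup (0.019 with upper-quartile normalization, −0.12 to 0.11 with 1 library omitted), Jund (−0.052 without normalization, −0.058 to 0.16 with 1 library omitted), Stat3 (−0.16 to 0.067) and Fosl1 (−0.49 to 2.05), both with 1 library omitted. The cause was not tested. Within 50000 bp, 2 of the 10 genes had a peak of the 25 µM list, against 0 at the 3 other settings. The groups had 2 libraries each for RNA and 1 for FAIRE, which limits every comparison here.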
